A study of Mus musculus with 18 samples.

Results

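Genes for 10 enzymes and regulators of branched-chain amino acid and arginine catabolism were followed in mpkCCD cells. This cell line was derived from mouse cortical collecting duct and serves as a model of the vasopressin-responsive principal cell. The genes were chosen by symbol: Bcat1, Bcat2, Bckdha, Bckdhb, Dbt, Bckdk, Arg1, Arg2, Odc1 and Oat, which are 10 of the 24111 genes in the deposited count table. They were picked with their response to treatment already known, so their dDAVP effects are described below and carry no p-value. Counts of members among the genes called for dDAVP stand only beside the share of all genes called, and support nothing, since the members were chosen on that contrast. RNA was sequenced from 9 libraries of untreated cells (control) and 9 of cells given dDAVP, and each group carries the replicate numbers 1 to 9.

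All cells were grown on permeable supports with hormone-supplemented medium and then kept without serum for 24 h. Control cells then stayed in serum-free medium, and the others received 0.1 nM dDAVP (desmopressin, a vasopressin analogue that acts on the V2 receptor) in serum-free medium for another 24 h. Both groups are thus the same cell line under the same serum-free conditions, and no primary tissue was measured. Nothing in the labels says that equally numbered or same-group libraries came from separate cultures, so p-values measure only the spread between these libraries, which may be technical.

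Leucine, isoleucine and valine are broken down in an ordered route. A branched-chain aminotransferase, Bcat1 in the cytosol or Bcat2 in mitochondria, moves the amino group to 2-oxoglutarate, and the branched-chain keto acid dehydrogenase then commits the carbon skeleton to oxidation, under the control of the inhibitory kinase Bckdk. Arginine is split by arginase, Arg1 in the cytosol or Arg2 in mitochondria, into urea and ornithine, which Odc1 turns into the polyamine putrescine and which Oat hands on towards proline and glutamate.

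Library totals ranged from 22.2 to 105.9 M counted reads. Values are given by replicate numbers 1 to 3, 4 to 6 and 7 to 9, called sets here, since the libraries differ between them; the labels do not name these sets. Levels are normalised CPM, that is counts scaled to a common library total after trimmed-mean (TMM) correction, and levels of different genes are compared only as FPKM, which is also scaled to gene length. The TMM factors ran from 0.306 in dDAVP library 6 to 3.16 in dDAVP library 8. dDAVP library 6 also had the fewest detected genes (10282) and 0.842% of its counts on ribosomal protein genes, against 5.17% to 27.2% in the other libraries. In the set 7 to 9, control library 8 and dDAVP library 7 resembled each other (r = 0.964 across genes) more than any other pair of that set (0.743 to 0.922), across the treatment labels, and results are given with and without them where they touch them. Of 14 principal cell markers 11 had a mean of at least 1 CPM, and Aqp4 and Elf5 were near 0. Of 8 intercalated cell markers 4 reached 1 CPM, and of 8 proximal tubule markers 1. All 6 endothelial markers were near 0, none of 7 fibroblast markers reached 1 CPM, and of 8 macrophage markers Csf1r, Cd68 and Cd14 did while Ptprc, Emr1, Itgam, Lyz2 and Mrc1 were near 0. In such bulk RNA, fewer cells of a type and less RNA per cell cannot be told apart.

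In normalised CPM, every dDAVP library of a set held more Bcat1 than every control library of that set, and Bcat1 was 4.03-fold higher in the fit with a set term. In FPKM and in CPM from library totals, Bcat1 was apart in libraries 1 to 3 and overlapped in the other sets. Arg2 was 19.6-fold higher with dDAVP in libraries 1 to 3. Its groups overlapped in 4 to 6 on each scale, and in 7 to 9 they overlapped in normalised CPM and were apart in FPKM. No other member was called by edgeR in the dDAVP comparisons, fitted with all libraries and the filter on low counts. Odc1, the next enzyme after arginase towards polyamines, was instead lower in the later sets than in libraries 1 to 3, in control and dDAVP libraries, although in dDAVP libraries 7 to 9 the call depended on the scaling.

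Bcat1 lies on mouse chromosome 6 (chr6:144993835-145076184, reverse strand, GRCm38, the same assembly as mm10) and GENCODE places antisense genes Gm26666 and Gm15687 over it, whose reads cannot be told apart from those of Bcat1 if the counting ignored strand. RefSeq lists 2 starts, and for each the 100 bases that end 5 bases into the outermost annotated transcript are shown, from RefSeq on GRCm38.p6, because Bcat1 is the member whose groups were apart in each set in normalised CPM. In both, and in the whole windows of 250 bases before to 50 after the start, a script found none of the motifs searched on both strands: the cAMP response element (CRE) TGACGTCA, its shorter core TGACG, the E-box CACGTG and the C/EBP-ATF site TGATGCAA, the element of the amino acid response.
Bcat1 longer form, chr6:145076180-145076279, GRCm38.p6, reverse strand: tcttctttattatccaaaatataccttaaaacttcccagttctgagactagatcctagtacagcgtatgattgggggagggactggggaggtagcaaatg
Bcat1 shorter form, chr6:145048808-145048907, GRCm38.p6, reverse strand: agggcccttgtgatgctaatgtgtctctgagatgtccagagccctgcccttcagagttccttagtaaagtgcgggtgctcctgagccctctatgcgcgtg
These motifs are present in 1.79%, 20.8%, 7.15% and 0.895% of the 32851 RefSeq promoter windows of the same length. A match or its absence describes letters in the window only.

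Bcat1 stood at 1.83, 2.27 and 3.74 CPM in control libraries 1 to 3 and at 21.1, 16.4 and 23.7 CPM in dDAVP libraries 1 to 3. Among libraries 4 to 6 it stood at 6.03, 5.68 and 13.2 CPM for control and 20.1, 23.3 and 30.3 CPM under dDAVP. Among libraries 7 to 9 the control values were 6.89, 6.54 and 2.75 CPM and the dDAVP values 7.30, 28.5 and 11.7 CPM. On this scale the groups did not overlap in any of the 3 sets, although dDAVP library 7 was close to its controls. Of the genes tested, 7.47%, 5.38% and 4.56% lay above every control library in the sets 1 to 3, 4 to 6 and 7 to 9, and 10 of the 8784 tested in each set (0.114%) did so in all 3, Bcat1 among them and no other member. In FPKM, the highest control and lowest dDAVP values of Bcat1 were 0.383 and 1.35 in libraries 1 to 3, 1.56 and 1.18 in 4 to 6, and 2.04 and 1.21 in 7 to 9. In CPM from library totals they were 3.00 and 10.6, 12.2 and 9.27, and 15.95 and 9.51. Over all 18 libraries the groups overlapped in normalised CPM too, since control library 6 (13.2 CPM) exceeded dDAVP libraries 7 and 9. The log2 fold change was 2.01 ± 0.37 (SE) in the fit with a set term, 2.90 ± 0.34 in libraries 1 to 3, 1.53 ± 0.56 in 4 to 6 and 1.55 ± 0.81 in 7 to 9. Without control library 8 and dDAVP library 7 the set-term value was 2.22 and that in 7 to 9 was 2.02, and without dDAVP library 8 it was 0.73 in 7 to 9. The set-term fit gave 8 calls at adjusted p under 0.05 with edgeR among 10121 genes (0.079%), Bcat1 being the one member among 7 tested. Its place among them was lost in fits without control library 1, 2, 3, 4 or 5, or dDAVP library 3 or 8, without the libraries 1 to 3 or 4 to 6 of both groups, with library totals in place of TMM and with FPKM values.

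Bcat2 (chr7:45570153-45589711, forward strand) is the mitochondrial aminotransferase. Its levels were 3.18, 2.21 and 3.60 CPM in control libraries 1 to 3 and 2.65, 5.20 and 8.40 CPM with dDAVP, which overlapped. In libraries 4 to 6 they were 5.44, 7.62 and 5.15 CPM in untreated cells and 8.86, 6.34 and 16.6 CPM after dDAVP. In libraries 7 to 9 they were 6.96, 41.8 and 7.27 CPM for control and 37.1, 9.89 and 8.47 CPM under dDAVP, so that the 2 highest values fell in control library 8 and dDAVP library 7. The log2 fold change with a set term was 0.54 ± 0.42, and that in 7 to 9 was -0.01 ± 0.88 with all libraries and 0.30 without these 2. Leaving out one of them turned its direction, to 1.30 without control library 8 and -1.0 without dDAVP library 7. The ratio of Bcat1 to Bcat2 in FPKM within a library had a median of 0.221 in control (0.0349 to 0.573, n = 9) and 0.631 with dDAVP (0.0440 to 1.77, n = 9). By set, the highest control ratio was 0.232, 0.573 and 0.221 and the lowest dDAVP ratio 0.631, 0.406 and 0.0440, so the groups overlapped in 4 to 6 and 7 to 9. Only dDAVP library 1 had more Bcat1 than Bcat2 per length (1.77). The lowest ratios of each group, 0.0349 and 0.0440, were again those of control library 8 and dDAVP library 7.

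**Figure D1:**
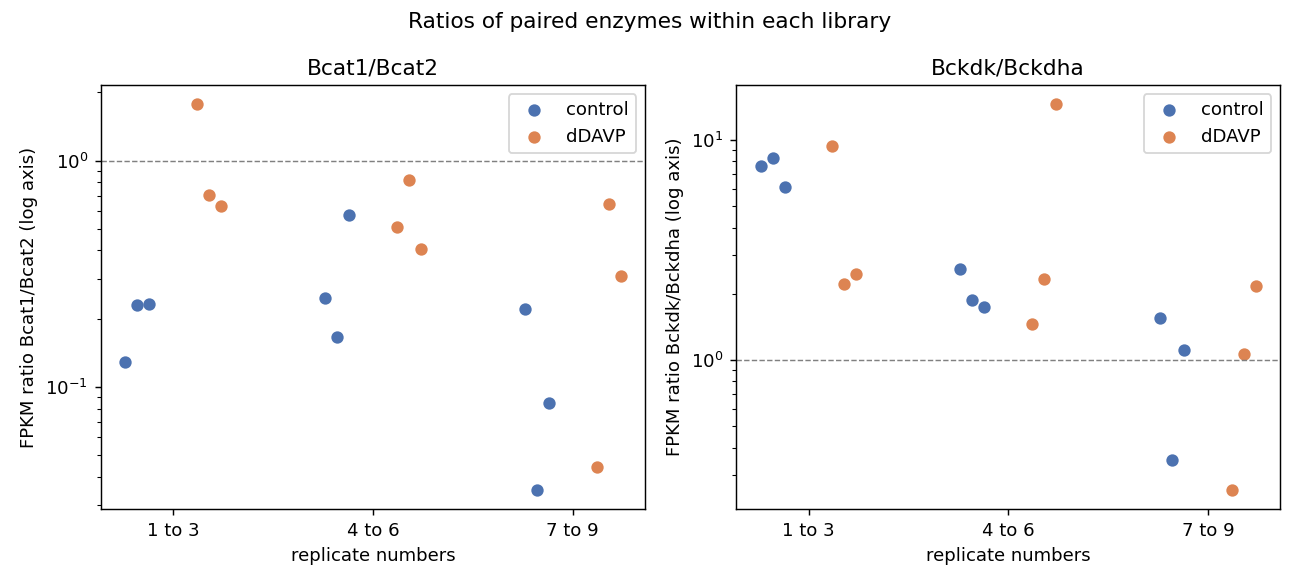
FPKM ratio of Bcat1 to Bcat2 (left) and of Bckdk to Bckdha (right) in each library on a log axis, by set of replicate numbers, with control in blue and dDAVP in orange. The dashed line marks equal levels per length, above which the Bcat1 to Bcat2 ratio rises only in dDAVP library 1 (1.77).

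The dehydrogenase itself is built from Bckdha and Bckdhb, the subunits of its decarboxylase, and Dbt, its acyltransferase core. Bckdha (chr7:25629946-25658981, reverse strand) overlaps B3gnt8 on the other strand over 5155 bases, and B3gnt8 had 0 counts in all libraries but control library 8, with 6. It stood at 4.28, 3.48 and 5.32 CPM in control libraries 1 to 3 and at 3.11, 20.0 and 18.2 CPM with dDAVP. Among libraries 4 to 6 it stood at 15.6, 13.2 and 12.2 CPM in untreated cells and 18.9, 15.0 and 0.838 CPM after dDAVP, the last in dDAVP library 6. Among libraries 7 to 9 it stood at 13.4, 271 and 41.4 CPM for control and 337, 38.5 and 33.8 CPM under dDAVP. The groups overlapped in every set, and in libraries 1 to 3 dDAVP library 1 lay below all 3 controls while dDAVP 2 and 3 lay above them. The log2 fold change was 1.54 ± 0.50 in libraries 1 to 3, -0.32 ± 0.81 in 4 to 6 and 0.34 ± 1.12 in 7 to 9. Leaving out dDAVP library 1, it came to 2.01 in libraries 1 to 3, and leaving out dDAVP library 6 it was 0.21 in 4 to 6. In 7 to 9 it was 2.23 without control library 8, -1.55 without dDAVP library 7 and 0.33 without both.

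Bckdhb (chr9:83925145-84124240, forward strand) stood at 2.63, 1.27 and 2.39 CPM in control libraries 1 to 3 and at 1.24, 5.74 and 4.85 CPM with dDAVP. In libraries 4 to 6 it was at 1.46, 0.581 and 0.0296 CPM in untreated cells and 0, 0.0539 and 0.120 CPM after dDAVP, which is 0, 2 and 1 counts. In libraries 7 to 9 it was at 0.813, 0.609 and 1.87 CPM for control and 2.44, 1.07 and 3.71 CPM under dDAVP. The groups overlapped in each set, but in FPKM those of 7 to 9 were apart, the highest control being 1.55 and the lowest dDAVP value 2.28. Of all genes tested in 7 to 9, 7.93% had every dDAVP library above every control in FPKM. A count of 0 beside at least 100 counts in another library of the same set and group occurred in 5.23% of genes in dDAVP libraries 4 to 6, against 0.121% in dDAVP libraries 1 to 3, and the part of such losses in the low Bckdhb values was not tested. Dbt (chr3:116513070-116549981, forward strand) had 100 counts over all control libraries and 112 over all dDAVP libraries, with no more than 62 in any one, and passed the filter on low counts in the set 7 to 9 only among the dDAVP comparisons.

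Bckdk, the kinase that switches the dehydrogenase off (chr7:127904082-127910221, forward strand), had overlapping groups in every set in normalised CPM. In FPKM they were apart in libraries 1 to 3, at 14.7 for the highest control and 16.1 for the lowest dDAVP library. Of all genes tested there, 10.9% had every dDAVP library above every control in FPKM. In libraries 1 to 3 its control values were 52.4, 46.5 and 52.3 CPM against 47.2, 71.2 and 72.5 CPM with dDAVP. Among libraries 4 to 6 it was at 64.8, 40.1 and 34.1 CPM in untreated cells and 44.2, 56.6 and 19.6 CPM after dDAVP. Among libraries 7 to 9 it was at 33.6, 153 and 74.2 CPM for control and 139, 66.0 and 118 CPM under dDAVP. The set-term log2 fold change was 0.15 ± 0.31. Per length Bckdk was above Bckdha in all control libraries but number 8 and in all dDAVP libraries but number 7. Its FPKM was a median 7.61 times that of Bckdha in control libraries 1 to 3, 1.88 times in 4 to 6 and 1.11 times in 7 to 9. With dDAVP these medians were 2.47, 2.34 and 1.06. The groups overlapped in every set, as in libraries 1 to 3 with 6.10 to 8.28 in control and 2.22 to 9.42 with dDAVP. In 4 to 6 they ran from 1.74 to 2.58 and from 1.45 to 14.5.

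Arg2, the mitochondrial arginase (chr12:79130777-79156301, forward strand), overlaps Vti1b on the other strand by 285 bases. It stood at 1.28, 0.949 and 1.67 CPM in control libraries 1 to 3 and at 27.2, 19.0 and 34.1 CPM in dDAVP libraries 1 to 3. Vti1b was there at 56.8, 32.0 and 41.5 CPM in untreated cells and 23.9, 30.0 and 55.6 CPM after dDAVP, with overlapping groups. In libraries 4 to 6 Arg2 was at 0.597, 1.26 and 0 CPM for control and 1.72, 0.162 and 1.92 CPM under dDAVP. In libraries 7 to 9 it was at 0, 0.248 and 0.465 CPM in untreated cells and 0.457, 3.54 and 3.34 CPM after dDAVP. The groups were far apart in the first set and overlapped in the others, where in 7 to 9 dDAVP library 7 lay just under control library 9. In FPKM the 7 to 9 groups were apart, with 0.379 in the highest control and 0.420 in the lowest dDAVP library. In FPKM, 10.9% of genes tested in 1 to 3 and 7.93% of those in 7 to 9 had every dDAVP library above every control. The log2 fold change was 4.30 ± 0.35 in libraries 1 to 3, 0.91 ± 1.64 in 4 to 6 and 3.33 ± 1.62 in 7 to 9, or 3.82 there without control library 8 and dDAVP library 7. Leaving out one library, the 4 to 6 value ran from 0.33 (without control 6) to 2.16 (without control 5). Libraries 1 to 3 gave 41 calls among 8991 genes with edgeR (0.456%), and Bcat1 and Arg2 were the 2 members among 7 tested, which is a description of members chosen on this contrast. There were 774 calls without dDAVP library 1, with 4 members. These were Bcat1, Arg2, Bckdha and a member that had not passed the filter with all libraries of the set (Dbt, Arg1 or Oat). Of the latter, Oat had 19 and 20 counts in dDAVP libraries 2 and 3 and 0 in control libraries 1 to 3. A call of Oat would rest on those 2 libraries alone. There were 13 to 15 calls without one of the control libraries 1, 2 or 3 and 24 without dDAVP library 2, each with Bcat1 and Arg2. The replicate number as a block gave 101 calls and these 2 members. Arg1, the cytosolic arginase of liver (chr10:24915221-24927484, reverse strand), was at 0 counts in all 9 control libraries and at 2, 1 and 2 counts in dDAVP libraries 2, 3 and 4. Both groups were thus at or under the floor of 3 counts per library and no fold is given.

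Odc1, which makes putrescine from ornithine (chr12:17544794-17551505, forward strand), holds the CRE core TGACG from its first annotated base, shown here in capitals because it is the one match before a RefSeq start among the members with a RefSeq promoter.
Odc1, chr12:17544699-17544798, GRCm38.p6, forward strand: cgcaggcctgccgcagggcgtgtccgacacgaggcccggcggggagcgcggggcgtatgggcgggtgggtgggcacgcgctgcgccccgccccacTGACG
Of the 10 members 7 had promoter entries, Arg1, Arg2 and Dbt being the others, and the CRE core was found in Odc1 and in Oat. Odc1 stood at 132, 174 and 156 CPM in control libraries 1 to 3 and at 168, 182 and 131 CPM with dDAVP. Among libraries 4 to 6 it was at 10.5, 36.2 and 26.5 CPM for control and 24.5, 30.5 and 24.6 CPM under dDAVP. Among libraries 7 to 9 it was at 21.9, 5.83 and 7.57 CPM in untreated cells and 6.26, 38.2 and 31.8 CPM after dDAVP. The groups overlapped in every set, and the set-term log2 fold change was 0.43 ± 0.36. Within libraries 1 to 3 it was -0.0005 ± 0.24. The FPKM ratio of Arg2 to Odc1 had a median of 0.0175 in control libraries 1 to 3 and of 0.291 with dDAVP. In 4 to 6 the groups overlapped, at 0 to 0.102 in control and 0.00953 to 0.140 with dDAVP. In 7 to 9 the medians were 0.0764 in control and 0.167 with dDAVP. The groups were narrowly apart there, at 0.110 in the highest control and 0.131 in the lowest dDAVP library. The control ratios rest on 0, 26 and 33 Arg2 counts, and how often ratios of other genes lie apart was not tested. Oat, the ornithine aminotransferase (chr7:132557478-132576398, reverse strand), lies inside the span of Fgfr2 in GENCODE. It had 19 and 20 counts in dDAVP libraries 2 and 3, 3 in control library 8 and 0 in every other library. It passed the filter in no comparison fitted with all its libraries.

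**Figure D2:**
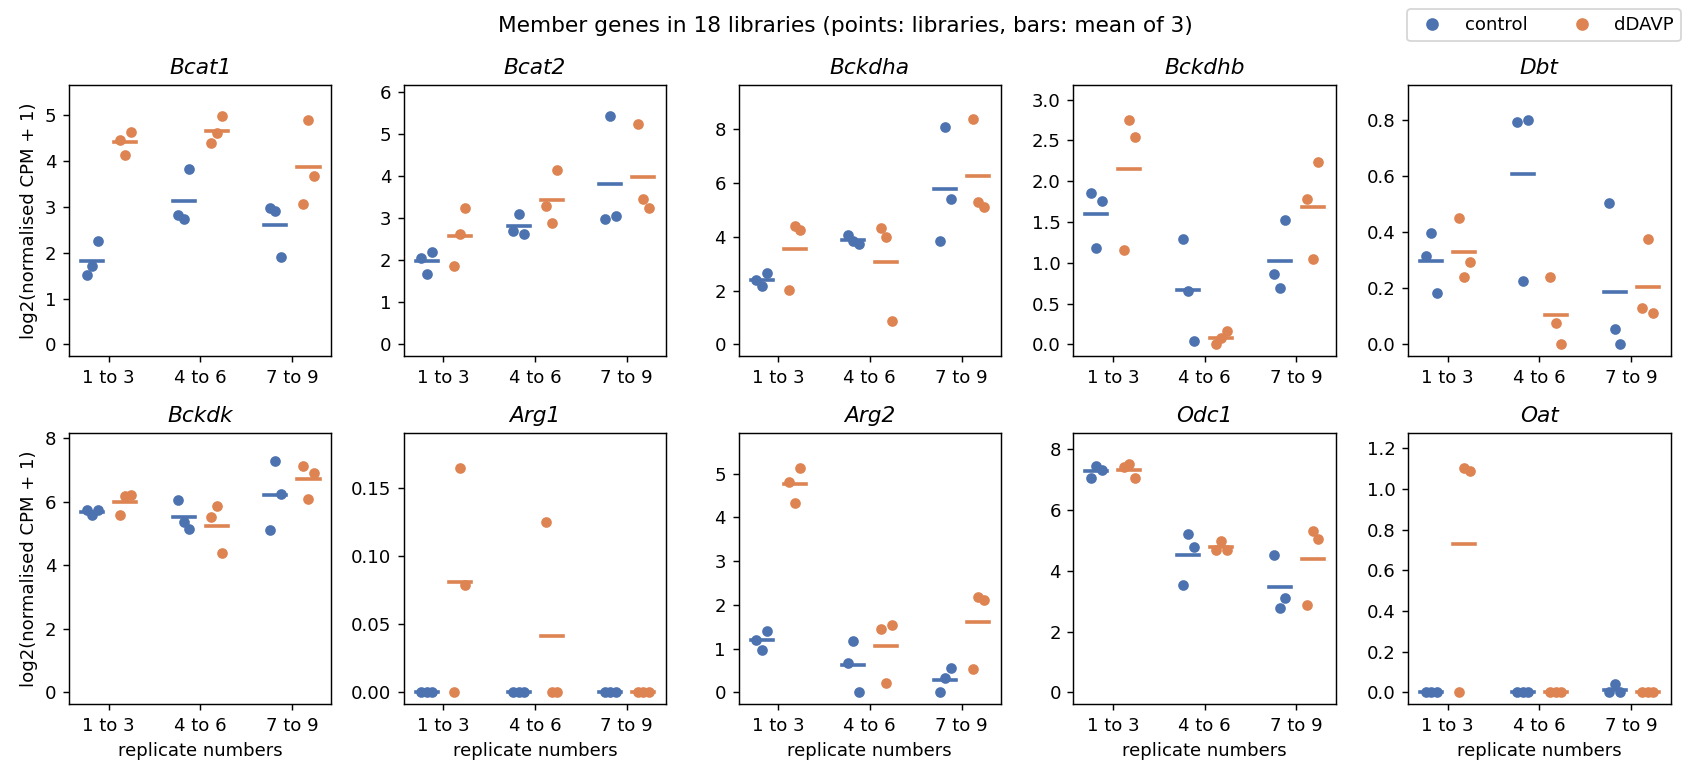
Level of each member as log2(normalised CPM + 1) in all 18 libraries, by set of replicate numbers, with control in blue, dDAVP in orange, a point for each library and a bar for the mean of 3; the vertical scale differs between panels. On this scale Bcat1 is separated in all 3 sets, Arg2 in libraries 1 to 3 only, and Odc1 is lower in the later sets than in the first in both groups.

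**Figure D3:**
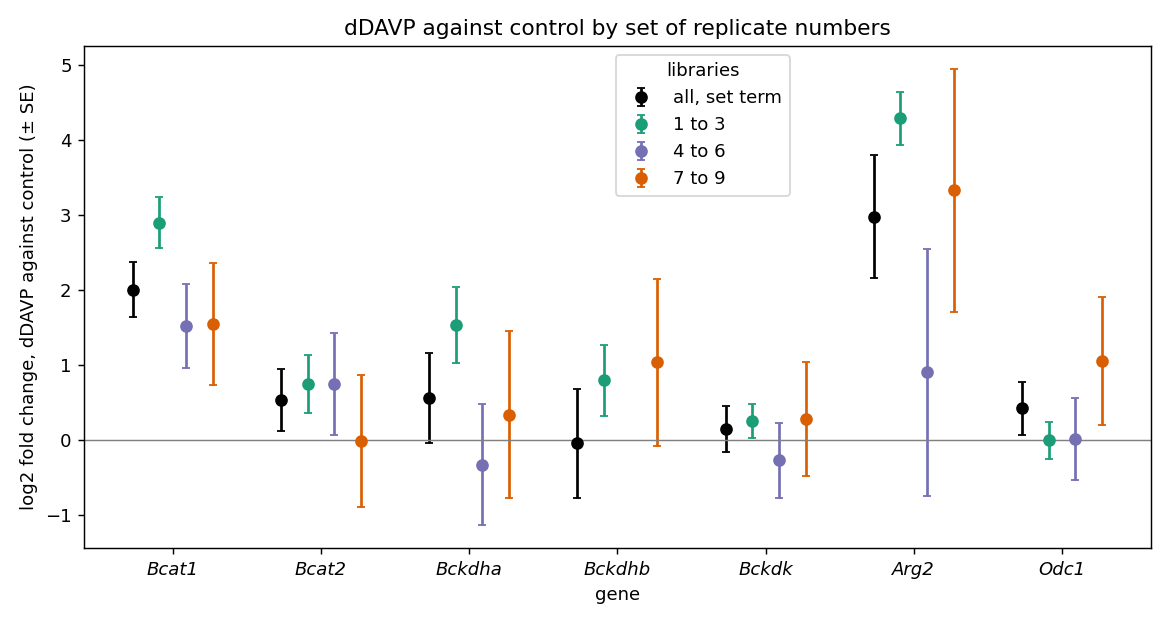
log2 fold change of dDAVP against control with its SE for the 7 members tested with a set term, in that fit and within each set; Bckdhb was not tested in 4 to 6. The bars of Bcat1 stay above 0 in every fit, and that of Arg2 crosses 0 in 4 to 6. Bcat2, Bckdha, Bckdhb, Bckdk and Odc1 each have a value below 0, in each case by less than its SE.

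With all 18 libraries and no set term, edgeR called 0 of 10121 genes and 0 of the 7 members tested; 218 genes (2.15%) had an unadjusted p under 0.05. DESeq2 called 6 genes, one of them Bcat1, and limma called 2 in each of the 3 fits on FPKM values. With the replicate number as a block 1 gene was called and no member. Within libraries 4 to 6 and within 7 to 9 edgeR called 0 genes, of 10387 and 11367, with 479 (4.61%) and 590 (5.19%) at an unadjusted p under 0.05. DESeq2 called 38 and 159 there, the replicate block 0 and 3, and leaving out dDAVP library 7 gave 98 calls in 7 to 9. The test of whether the dDAVP effect differed between sets called 0 of 10121 genes, with 671 (6.63%) unadjusted, so that no difference of Arg2 between sets is shown by it. The tested members' median log2 fold change was 0.54 with a set term against 0.02 over all genes tested, and 6 of 7 were positive against 52.2% of all genes, which describes members chosen on this contrast.

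Libraries of the later sets were also compared with libraries 1 to 3 within each group. Much of the transcriptome differed there, in control 4 to 6, control 7 to 9, dDAVP 4 to 6 and dDAVP 7 to 9 in that order 37.5%, 49%, 28.8% and 37.4% of genes being called. The members called were 1 of 8, 3 of 8, 3 of 7 and 3 of 7 tested, which is no result particular to them. The dDAVP counts include Arg2 in both comparisons and Bckdhb in 4 to 6, for which no p is given below, so these counts support nothing. Odc1 was lower in the later sets, in control and in dDAVP libraries. Its log2 fold change was -2.86 ± 0.64 in control libraries 4 to 6 against 1 to 3 (edgeR adjusted p = 0.00333) and -3.94 ± 0.67 in 7 to 9 against 1 to 3 (adjusted p = 0.000457). The dDAVP libraries share no sample with these, but they are divided by the same replicate numbers, and the labels do not say what differs between sets. In them the log2 fold change of Odc1 was -2.75 ± 0.66 in 4 to 6 (edgeR adjusted p = 0.00709) and -2.81 ± 0.66 in 7 to 9 (adjusted p = 0.00683), the last not called with library totals in place of TMM (-0.79). Library totals moved the median of all genes between sets by 1.28 log2 units in control libraries 7 to 9 and by 1.80 in dDAVP libraries 7 to 9.

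Bckdha was higher in libraries 7 to 9 in both groups, and Bcat2 in control libraries. Bckdha was 4.38 ± 0.88 log2 units higher in control libraries 7 to 9 than in 1 to 3 (edgeR adjusted p = 0.00123; 2.51 without control library 8) and 3.11 ± 1.09 higher in dDAVP libraries (adjusted p = 0.0378). The dDAVP call was lost without dDAVP library 1, 2, 3 or 7, and without library 7 the value was 1.30. Bcat2 was 2.38 ± 0.72 higher in control libraries 7 to 9 (edgeR adjusted p = 0.0141), a call lost without control library 1, 2 or 8 (1.07 without control 8), and 1.58 ± 0.75 higher in dDAVP libraries, which did not pass (adjusted p = 0.111). Arg2 was at 19.0 to 34.1 CPM in dDAVP libraries 1 to 3, at 0.162 to 1.92 in 4 to 6 and at 0.457 to 3.54 in 7 to 9. The log2 fold changes of the later dDAVP sets against 1 to 3 were -4.58 ± 1.04 and -3.60 ± 0.98 (-1.58 with library totals), given without a p because the dDAVP libraries 1 to 3 hold the values for which Arg2 was chosen. In control libraries Arg2 was not called (edgeR adjusted p = 0.546 in 4 to 6 and 0.189 in 7 to 9). Bckdhb had 208 counts over dDAVP libraries 1 to 3 and 3 over dDAVP libraries 4 to 6, a ratio of 0.0120 per normalised total with an exact 95% interval for counting error of 0.00245 to 0.0355. That interval leaves out the spread between libraries. No p is given, because Bckdhb was under the floor of 3 counts in every dDAVP library of 4 to 6. It passed the filter only through the other sets. Bcat1 and Bckdk passed in none of these 4 comparisons with TMM. With library totals, Bcat1 (2.19) and Bckdk (1.67) passed in control libraries 7 to 9, and Bcat2 (3.12) and Bckdk (2.32) in dDAVP libraries 7 to 9.

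**Figure D4:**
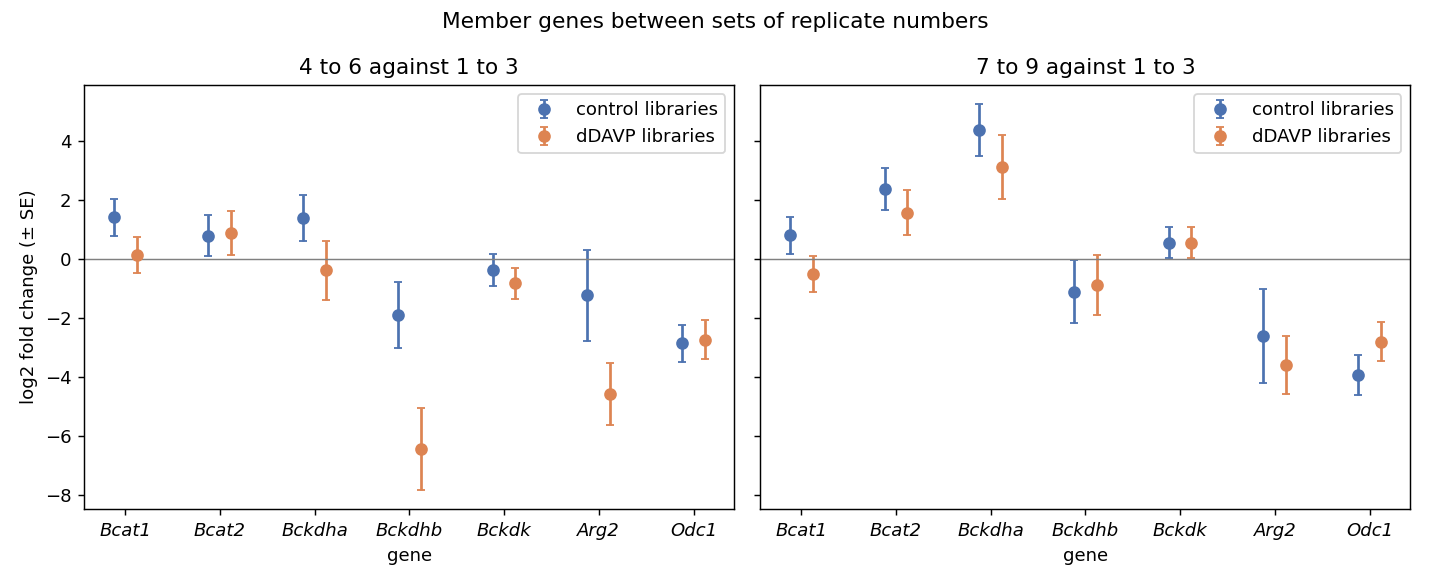
log2 fold change between sets for 7 members, with SE, in control (blue) and dDAVP (orange) libraries: 4 to 6 against 1 to 3 at left, 7 to 9 against 1 to 3 at right. Odc1 lies below 0 in all 4, Bckdha and Bcat2 above 0 at right.

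Ordered by FPKM within control libraries 1 to 3, Odc1 came first (46.8 ± 10.2, SD, n = 3), then Bckdk (13.5 ± 1.06), Bckdha (1.89 ± 0.45), Bcat2 (1.31 ± 0.32), Bckdhb (1.13 ± 0.35), Arg2 (0.704 ± 0.212), Bcat1 (0.259 ± 0.113) and Dbt (0.0540 ± 0.0227), with Arg1 and Oat at 0. Neighbours overlapped from Bckdha to Arg2. With dDAVP in the same libraries Arg2 came next after Bckdk, at 14.8 ± 5.37 FPKM, overlapping Bckdk (16.7 ± 0.859). In control libraries 7 to 9 Bckdha came first (82.9 ± 105) and Odc1 came after Bckdk and Bcat2 (8.80 ± 9.64), with ranges that overlapped from Bckdha to Odc1.

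edgeR called no gene of the other pathway lists for dDAVP, fitted with all libraries and the filter on low counts. Of 23 genes of branched-chain degradation beyond the keto acid dehydrogenase, 21 were tested with a set term and 0 were called in either direction, with a median log2 fold change of 0.06 against 0.02 over all genes. Of 17 other genes of arginine, proline and the urea cycle 9 were tested and 0 called (median 0.13). The same held for 12 of 16 polyamine genes (median -0.18), 11 of 18 transporters and sensors of leucine and arginine (0.25) and 9 of 10 glutamate and 2-oxoglutarate enzymes (0.15). Slc3a2, the heavy chain of the leucine transporter, was at 324 ± 54.8 CPM in control libraries 1 to 3 and 648 ± 85.6 CPM with dDAVP (SD, n = 3 each). This difference was not called by edgeR with all libraries of the set and the filter on low counts. It was called by DESeq2, and by edgeR without the filter or without dDAVP library 1. In libraries 4 to 6 Slc3a2 was at 89.8 ± 16.6 and 96.3 ± 30.9 CPM, and in 7 to 9 at 658 ± 288 and 514 ± 268 CPM, in control and dDAVP. Its partner Slc7a5 was at a mean of 4.92 and 5.18 CPM in libraries 1 to 3, and the arginine transporter Slc7a1 at 138 and 97.4 CPM, neither called. Psat1, which uses glutamate in serine synthesis, was at 936 ± 312 CPM in control libraries 1 to 3 and 1245 ± 66.1 CPM with dDAVP. In libraries 4 to 6 it was at 70.5 ± 14.1 and 124 ± 72.4 CPM, and in 7 to 9 at 118 ± 48.0 and 246 ± 147 CPM. Hsd17b10, an isoleucine-degrading enzyme, was at 184 ± 18.8 and 221 ± 36.6 CPM in libraries 1 to 3, and at 6.72 ± 3.46 and 8.60 ± 4.75 CPM in 4 to 6. In 7 to 9 it was lower with dDAVP, at 29.6 ± 17.6 and 21.8 ± 3.86 CPM. The groups of Psat1 and of Hsd17b10 overlapped in every set.

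After each set's mean was removed, the 5 genes most like Bcat1 over the 18 libraries, among 9339 genes, were Arhgef3 (r = 0.94), C3 (0.91), Cited1 (0.87), Tef (0.84) and Mtus1 (0.83). Those most like Arg2 were C3 (0.85), Spink8 (0.81), Nme6 (0.81), Marveld1 (0.81) and Adh1 (0.81). These are correlations across libraries that share both treatment and depth, given as a description.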

How the data were processed

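The authors deposited raw counts per gene and library, and FPKM values for the same libraries. The submitters list mm10 and STAR 2.4.0.1, SAMtools and HTSeq (per the submitters' processing notes); annotation release and strand setting are not given in the sources used here, so overlapping antisense genes are uncertain. The protocols describe 2 library methods without saying which library had which. The deposited FPKM values were used for levels between genes and as an alternative.

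Counts were tested with edgeR 4.0.16 (quasi-likelihood, TMM, filterByExpr, Benjamini-Hochberg adjusted p under 0.05, two-sided) in R 4.3.3; SE is the log2 fold change over the square root of F. DESeq2 1.42.0, limma 3.58.1 on log2(FPKM + 1 or 0.1), other scalings, no filter, a replicate block and left-out libraries were alternatives. Some of the fits were also run on counts simulated from their own fitted model, which is no check of them on outlying libraries. The 10 members, the gene lists and the motifs were chosen with earlier results of these data known. The rule named the members, each list's called genes or else its 3 most abundant, and the 5 genes most like Bcat1 and Arg2; Psat1, Hsd17b10 and Slc3a2 are part of these, and 1 result under the rule is not reported here. Equal replicate numbers deviated together from the group means (r 0.40 to 0.93). After the set means were removed r ran from -0.71 to 0.43, so within sets the data show no common pairing. The labels do not say what the numbers share. The main fits therefore used no pairing, and the block is an alternative. No pair of libraries within the same group agreed within sampling noise (lowest chi-square per degree of freedom 66.5). Pairs of a control and a dDAVP library were not tested in this way. GENCODE M21 (GRCm38) gave gene positions, and RefSeq (GRCm38.p6) the promoter sequences. A count of 0 allows up to 3 counts by counting error alone, and PCR copies are not told apart from separate molecules. Python 3.11.15, numpy 2.4.6, pandas 2.3.3 and matplotlib 3.10.9 were used for tables and plots.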

Additional observations from a re-analysis of the deposited data

Results flagged for a closer look

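Single libraries stood far from the other 8 of their group in normalised CPM, by Dixon's test, which sets the gap to the nearest library against the range of the group. By chance about 1 in 20 such groups holds one if its values are normally distributed, which was not tested here. Control library 8 was the highest for Bcat2 (41.8), Bckdha (271) and Bckdk (153), and was the only control library with any Oat count (0.0286, which is 3 counts). With Oat at 0 in the other 8, any count would have been flagged, so this flag says nothing of its level. dDAVP library 7 was the highest for Bcat2 (37.1) and Bckdha (337). Control library 6 was the highest control for Bcat1 (13.2).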

How the results depend on the processing

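Counts of genes called for dDAVP against control, and of members among them, moved with the processing; the cause was not tested. All 18 libraries: 0 calls, 6 with DESeq2 (members 1), 2 in each FPKM fit; leaving out 1 library gave 0 to 1 (members 0 to 0). Set term: 8 calls (members 1), 5 with library totals only (members 0), 40 with DESeq2 (members 2), 4, 3 and 3 in the FPKM fits (members 0), 0 without libraries 1 to 3 (members 0) or 4 to 6 (members 0), and 4 to 9 leaving out 1 library (members 0 to 1). Libraries 1 to 3: 41 calls (members 2), 207 without a filter (members 3), 113 with DESeq2, 14 with FPKM and no filter (members 1), and 13 to 774 leaving out 1 library (members 2 to 4), 774 being without dDAVP 1. Libraries 4 to 6: 0, 1 without a filter, 1 with library totals, 38 with DESeq2, and 0 to 2. Libraries 7 to 9: 0, 30 without a filter, 7 with library totals, 159 with DESeq2, 2 in both filtered FPKM fits, 1 without control 8 and dDAVP 7, and 0 to 98. Interaction: 0, and 35 without a filter. The replicate block gave 1 call for all libraries, 101 for 1 to 3 and 3 for 7 to 9, and changed no member's call. Between sets, leaving out 1 library gave 2544 to 5108 calls (members 1 to 2) for control 4 to 6, 3835 to 6396 (members 2 to 3) for control 7 to 9, 1855 to 3821 (members 3 to 3) for dDAVP 4 to 6 and 1703 to 5129 (members 1 to 4) for dDAVP 7 to 9; library totals gave 5 members in control 7 to 9. Library totals, a setting added after seeing the data like the fits without control 8 and dDAVP 7, moved the median of all genes by up to 1.80 (log2) and turned uncalled values: Bckdk in control 4 to 6 (0.0035), Bckdhb (0.032) and Dbt (0.90) in control 7 to 9, Bcat1 in dDAVP 4 to 6 (-0.079) and 7 to 9 (1.46) and Bckdhb in dDAVP 7 to 9 (1.01). So did leaving out control 8 for Bckdk in control 7 to 9 (-0.054; range over left-out libraries to 0.94), and dDAVP 2 (0.10) or dDAVP 6 (0.29) for Bckdha in dDAVP 4 to 6 (range from -0.85). Low counts limit what can be said of Dbt, Arg1 and Oat, with at most 62, 2 and 20 counts in a library.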
